A study of Mus musculus with 9 samples.

Results

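Carbonic anhydrases and aquaporins of intestinal epithelial cells were examined in newborn mice whose intestinal epithelium lacked transferrin receptor 1 (Tfr1), in a rescue of that knockout and in control pups. The set comprised 10 genes of 18193 measured, taken by name: the carbonic anhydrases Car1, Car2, Car3, Car4, Car8 and Car12 and the aquaporins Aqp1, Aqp3, Aqp4 and Aqp8. All 10 were read on the array, each through the brightest probe set that carried its symbol alone. Rescue pups had the genotype Tfr1 IEC-KO;ROSA26 Tfr1R654A/+, that is, the intestinal epithelial knockout together with 1 copy of a Tfr1 that carries R654A, placed at ROSA26. Knockout pups were Tfr1 IEC-KO, and control pups were Tfr1fl/fl, with floxed alleles that the labels call wildtype. Each genotype had 3 arrays, all from postnatal day 0 and untreated. The Cre driver is not given in the sources used here. RNA came from cells shaken off pieces of small intestine and proximal colon after 30 min in 2 mM EDTA, passed through a 70 µm mesh, and the labels name no sort. The labels do not say whether arrays came from separate pups, so p-values measure only the spread between these arrays.

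Carbonic anhydrases interconvert carbon dioxide and water with bicarbonate and a proton. In the gut they supply the ions that epithelial exchangers trade for sodium and chloride, and the salt that crosses the epithelium draws water with it. Aquaporins are membrane channels that let water pass along such gradients, and the aquaglyceroporins among them also pass glycerol. The loss of Tfr1, which takes transferrin-bound iron into cells, is the question the study put to this epithelium, and the R654A change strongly weakens the binding of transferrin.

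Promoter sequences were matched for 5 of the 10 genes (Aqp1, Aqp3, Aqp8, Car4 and Car12) in the RefSeq table of build GRCm38.p6. The 250 bases before the start are shown for a gene of each family, Car12, which fell in knockout cells, and Aqp3, whose change against control did not pass. The Car12 window is at chr9:66713436-66713685 on the plus strand and that of Aqp3 at chr4:41098184-41098433 on the minus strand. The start that the table gives for Car12 lies inside the annotated gene, 1390 bases after its first base, and that of Aqp3 is the gene's first base. Both are written 5′ to 3′ along the gene, and capitals mark a GC box or a TATA box.
Car12: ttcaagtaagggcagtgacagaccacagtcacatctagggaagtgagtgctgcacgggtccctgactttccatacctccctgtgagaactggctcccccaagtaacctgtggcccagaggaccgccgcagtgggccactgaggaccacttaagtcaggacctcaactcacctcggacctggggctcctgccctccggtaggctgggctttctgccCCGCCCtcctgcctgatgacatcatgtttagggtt
Aqp3: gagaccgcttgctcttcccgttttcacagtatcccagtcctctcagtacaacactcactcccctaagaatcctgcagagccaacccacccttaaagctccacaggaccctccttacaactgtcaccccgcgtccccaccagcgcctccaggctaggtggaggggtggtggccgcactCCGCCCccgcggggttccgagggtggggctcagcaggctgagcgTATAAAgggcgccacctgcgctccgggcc
The GC box was searched as GGGCGG on both strands. It was found once in each of these windows, 35 bases before the start of Car12 and 73 before that of Aqp3, and 32.7% of all 32851 windows of that length hold it. TATAAA was found 29 bases before the start of Aqp3 and not in the Car12 window, against 12.4% of all windows. The AP-1 motif, searched on both strands as TGANTCA, had 0 matches in these windows and is held by 6.75% of all. The motif of zinc finger factors such as Gata4 was searched as AGATAA and also had 0 matches, against 9.99% of all windows. For hypoxia-inducible factors the core ACGTG was searched, with 0 matches here and a share of 16.6% over all windows. No motif overlapped another in these windows, and a match describes letters only.

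Knockout arrays were less alike (median standard deviation of a gene 0.140 in rescue, 0.225 in knockout and 0.104 in control, log2). The 12 measured fibroblast markers averaged 8.34, 7.72 and 7.84 in rescue arrays, 11.1, 10.5 and 7.47 in knockout arrays and 6.69, 7.30 and 7.43 in control arrays, so knockout replicates 1 and 2 stood apart from replicate 3. Xist averaged 6.67, 12.5 and 12.2 in rescue, knockout and control, and the Y-linked Eif2s3y 9.51, 2.63 and 2.78, so sex and rescue cannot be told apart. The labelled cell type showed in 13 of 13 measured enterocyte markers, whose summed level (log2 of the sum of unlogged values) was 16.9 to 17.0 in rescue, 16.7 to 17.0 in knockout and 16.9 to 17.0 in control. Such a sum follows the brightest markers. Of the 13, 3 were lower and 1 higher in knockout against control by limma's test (adjusted p of 0.05 or less), against 8.77% and 5.29% of all genes. The probe set of Tfrc, the gene of Tfr1, that was brightest averaged 10.7, 10.3 and 10.3 in rescue, knockout and control, while its other 2 read 10.9 and 8.83 in rescue, 5.88 and 4.31 in knockout and 6.15 and 4.67 in control. The other 2 thus mark the added receptor, and the brightest does not. Where these probe sets lie relative to the deleted exons was not analysed here, so they do not check the deletion.

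In knockout cells, transcripts of the cytosolic enzymes Car1 and Car2 rose, by at least 5.51-fold and by 7.74-fold, while those of the membrane enzyme Car12 and the water channel Aqp4 fell, by 2.16-fold and at least 6.97-fold. These 4 of 10 genes passed limma's test between knockout and control, 2 higher and 2 lower, at an adjusted p of 0.05 or less. Over all genes 14.1% passed, 5.29% higher and 8.77% lower. All 3 knockout arrays lay outside the control arrays for 5 of the 10, higher for Car1 and Car2 and lower for Car8, Car12 and Aqp4. Over all genes 32.4% were separated in this way, 12.7% higher and 19.7% lower. The median change of the 10 genes was -0.02, beside -0.04 for all genes. The calls depended on the arrays and the model. With the fibroblast mean as covariate the log2 rises were 0.49 for Car1 and 1.48 for Car2, and neither passed. Without any 1 of the control arrays, 0 of 10 members passed. In bulk RNA, fewer cells of a type and less RNA per cell cannot be told apart.

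Between rescue and knockout, 0 of 10 genes passed limma's test, against 2.31% of all genes, and 5 of 10 had an unadjusted p under 0.05, against 18.9% of all genes. Rescue arrays lay wholly above knockout arrays for Car8 and wholly below them for Car1, Car2 and Car4, which makes 4 of 10, against 18.1% of all genes (10.6% higher and 7.5% lower). Between rescue and control, 0 of 10 passed limma's test, against 0.126% of all genes, and 1 of 10, Aqp4, had an unadjusted p under 0.05, against 6.62% of all genes. All rescue arrays lay below all control arrays for Car12 and Aqp4, 2 of 10, against 16.6% of all genes in either direction and 9.9% lower. The 3 comparisons share arrays, and the median change of the members was -0.05 and -0.14 in these 2, beside 0.04 and -0.01 over all genes.

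**Figure D1:**
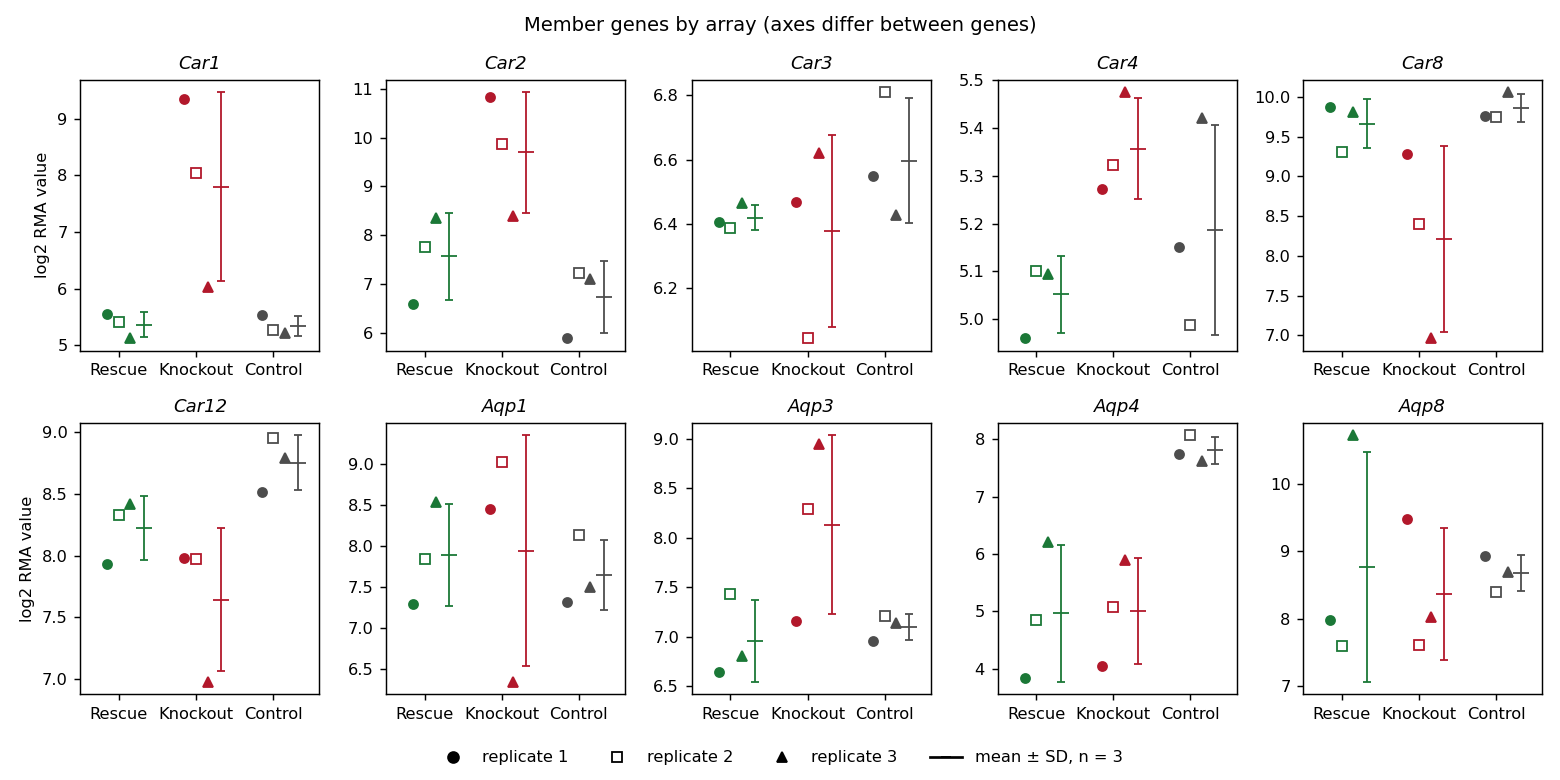
Log2 RMA value (vertical axis, scaled for each gene) of the 10 genes in each array; columns of points are rescue, knockout and control, marker shapes are replicates 1 to 3, and the bar is the group mean ± SD. Knockout replicate 3 is the lowest knockout array for Car1, Car2, Car8, Car12 and Aqp1 and the highest for Aqp3, and Aqp4 is below 6.5 in all rescue and knockout arrays and above 7.5 in all control arrays.

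**Figure D2:**
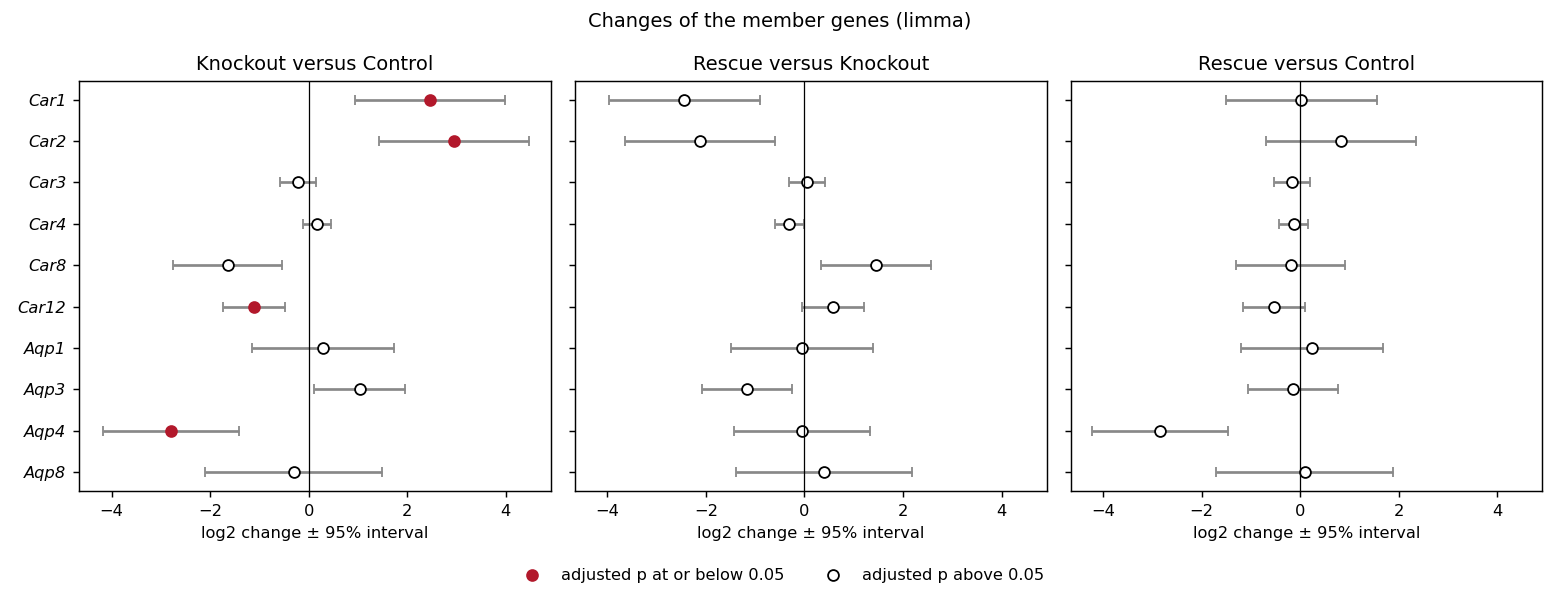
Log2 change with its 95% interval (horizontal axis) of each gene for knockout against control, rescue against knockout and rescue against control; filled points passed an adjusted p of 0.05 in limma and open points did not. Filled points stand only in the first comparison, at Car1, Car2, Car12 and Aqp4.

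Car1, a cytosolic carbonic anhydrase known from red blood cells and the epithelium of the large intestine, read 5.56, 5.41 and 5.12 in rescue replicates 1, 2 and 3, against 9.34, 8.04 and 6.03 in the knockout arrays and 5.53, 5.27 and 5.22 in the control arrays. All knockout arrays were above all others, replicate 3 by the least, and rescue arrays overlapped control arrays. Car1 rose by 2.46 ± 0.67 on the log2 scale in knockout against control (SE, 3 arrays each, adjusted p = 0.0442). The fold is given as at least 5.51, since the control mean lay among the dimmest 40% of genes, where background flattens differences. The change between rescue and knockout was -2.44 ± 0.67 (adjusted p = 0.107), with an interval of -3.97 to -0.91, and that between rescue and control was 0.02 with an interval of -1.51 to 1.55. The Car1 call rested on the whole set of arrays: its adjusted p was 0.0647 to 0.130 without rescue replicate 1, 2 or 3, knockout replicate 1 or 2, or control replicate 1, 2 or 3, and 4.2e-04 without knockout replicate 3. The change itself was 1.69 without knockout replicate 1 and 3.35 without knockout replicate 3. Of 10 erythroid markers 6 were measured, with a summed level of 8.03 to 8.16 in rescue, 8.03 to 8.75 in knockout and 7.95 to 8.07 in control, and Hba-a1, Epb42 and Rhag were dim in every group. The colon list, with 6 of 10 measured markers dim in every group, summed to 13.4 to 13.5 in rescue, 13.7 to 14.1 in knockout and 13.5 to 13.6 in control. That sum mostly follows its brightest marker, Prap1, which averaged 13.2, 13.7 and 13.2 in rescue, knockout and control. The median colon marker lay 0.12, 0.01 and 0.19 above its control mean in knockout replicates 1, 2 and 3. Of the 10 measured colon markers, 2 passed as higher and 0 as lower in knockout against control, where 5.29% of all genes passed as higher. The part of these markers in the Car1 values was not tested.

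Car2 is the fast, widely expressed cytosolic enzyme, which serves bicarbonate secretion in gut, stomach and pancreas. It read 6.61, 7.77 and 8.35 in rescue arrays, against 10.84, 9.87 and 8.39 in knockout arrays and 5.90, 7.23 and 7.11 in control arrays. Every knockout array was above every control array, while the lowest of them, replicate 3, stood only just above the highest rescue array. Car2 rose by 2.95 ± 0.67 in knockout against control (7.74-fold, adjusted p = 0.0230). Between rescue and knockout the change was -2.12 ± 0.67 (adjusted p = 0.146), and between rescue and control it was 0.83, with an interval of -0.70 to 2.36. The adjusted p of the rise was 0.0549 to 0.0866 without any of the control arrays, 0.0613 without knockout replicate 1 and 0.0624 without knockout replicate 2, and the change was 2.38 without knockout replicate 1 and 3.61 without knockout replicate 3. Without knockout replicate 3, the falls in rescue against knockout passed for Car1 and Car2, at -3.33 (adjusted p = 8.8e-04) and -2.78 (adjusted p = 0.0167).

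Car13, Car1, Car3 and Car2 follow each other as protein-coding genes on mouse chromosome 3 in assembly GRCm38.p6. Car1 and Car2 both rose in knockout cells and correlated at r = 0.856 over the 9 arrays, while Car3 and Car13 did not pass. Car3, a cytosolic form of low activity known from muscle and fat, read 6.41, 6.39 and 6.46 in rescue arrays, 6.47, 6.04 and 6.62 in knockout arrays and 6.55, 6.81 and 6.43 in control arrays. The groups overlapped, and its change in knockout against control was -0.22 ± 0.16 (adjusted p = 0.416), with an interval of -0.58 to 0.15. Car13, another cytosolic enzyme, changed by -0.34 ± 0.20 (adjusted p = 0.300). The skeletal muscle list, with 6 of 8 markers dim in every group, summed to 8.64 to 8.81 in rescue, 8.41 to 9.07 in knockout and 8.64 to 8.75 in control. The adipocyte list, with Adipoq and Lep dim, summed to 10.63 to 11.23 in rescue, 11.54 to 11.73 in knockout and 10.56 to 10.85 in control. This sum was higher in all knockout arrays, but it follows the brightest markers. The median adipocyte marker stood at 0.04, -0.01 and 0.28 against its control mean in knockout replicates 1, 2 and 3. In knockout against control 0 of the 6 measured markers passed. The part of these markers in the Car3 values was not tested. The other 3 Car3 probe sets changed by -0.12 to 0.53 between knockout and control, and 0 of 3 passed.

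Car8 belongs to the family by sequence but lacks the catalytic activity, and is known for binding the inositol trisphosphate receptor. It read 9.87, 9.31 and 9.81 in rescue arrays, against 9.28, 8.40 and 6.96 in knockout arrays and 9.76, 9.75 and 10.06 in control arrays. All knockout arrays were below all rescue and all control arrays, with replicate 3 far below the other two. The change in knockout against control, -1.64 ± 0.49, did not pass (adjusted p = 0.0575), nor did that of 1.45 ± 0.49 in rescue against knockout (adjusted p = 0.163). Without knockout replicate 1 the adjusted p against control was 0.0157, and without knockout replicate 3 it was 0.0262. A dimmer Car8 probe set did pass when all probe sets were tested, at -0.76 ± 0.16 (adjusted p = 0.0233), and the third read -0.28 ± 0.12 (adjusted p = 0.203).

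Car12, a transmembrane carbonic anhydrase with its active site outside the cell, read 7.93, 8.33 and 8.42 in rescue arrays, against 7.98, 7.98 and 6.98 in knockout arrays and 8.52, 8.95 and 8.79 in control arrays. Control arrays were above all others, and rescue and knockout arrays overlapped. Car12 fell by 1.11 ± 0.27 in knockout against control (2.16-fold, adjusted p = 0.0314). Between rescue and knockout its change was 0.58 ± 0.27 (adjusted p = 0.293), and between rescue and control it was -0.53 ± 0.27 (adjusted p = 0.877). Another Car12 probe set passed in the same direction (-0.41 ± 0.10, adjusted p = 0.0462), and the other did not (-0.28 ± 0.11, adjusted p = 0.151). The fall did not pass without rescue replicate 2 (adjusted p = 0.0521) or without control replicate 1, 2 or 3 (0.0647, 0.112 and 0.103). Its promoter window is the first of those printed above.

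Car4, a carbonic anhydrase held to the outer face of the membrane by a lipid anchor, was among the dimmest 40% of genes in every group. It read 4.96, 5.10 and 5.09 in rescue arrays, 5.27, 5.32 and 5.48 in knockout arrays and 5.15, 4.99 and 5.42 in control arrays. Rescue arrays lay just below knockout arrays, by 0.31 ± 0.13 in the means, which did not pass (adjusted p = 0.240). Knockout and control arrays overlapped (0.17 ± 0.13, adjusted p = 0.422), and at this signal over background no fold is given.

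Aqp4, a water channel of the basolateral membrane that is best known from astrocytes and is also present in gastric parietal cells, was higher in control arrays than in both other groups. It read 3.84, 4.86 and 6.21 in rescue arrays, against 4.06, 5.08 and 5.90 in knockout arrays and 7.74, 8.07 and 7.62 in control arrays. The lowest control array was above the highest of the other 6, and rescue and knockout arrays covered nearly the same range. Aqp4 fell by 2.80 ± 0.61 in knockout against control (at least 6.97-fold, adjusted p = 0.0194). The change of -2.85 ± 0.61 in rescue against control did not pass after adjustment over all genes (unadjusted p = 0.0013, adjusted p = 0.179). Rescue and knockout differed by -0.04, with an interval of -1.42 to 1.34, so a difference of more than 1 log2 unit between them was within the error.

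Another, dimmer Aqp4 probe set passed in both comparisons with control when all probe sets were tested. It averaged 4.14 in rescue, 4.15 in knockout and 5.51 in control, which gave -1.36 ± 0.15 in knockout against control (adjusted p = 0.0019) and -1.38 ± 0.15 in rescue against control (adjusted p = 0.0167). The third, at -0.34 ± 0.13 and -0.15 ± 0.13, passed in neither (adjusted p = 0.138 in knockout). It was the brighter of these 2, at 5.68 in rescue, 5.48 in knockout and 5.83 in control. Both averaged below the level at which genes were called dim in every group. The fall of the brightest probe set in knockout did not pass without knockout replicate 1 (adjusted p = 0.0537) or without control replicate 1, 2 or 3 (0.0646, 0.0733 and 0.0637). Neuronal and glial markers, with Uchl1 and Tubb3 dim in every group, summed to 9.56 to 9.65 in rescue, 10.02 to 11.19 in knockout and 9.47 to 9.52 in control. Of these, the glial Gfap, Sox10 and S100b averaged 6.42, 7.23 and 6.38 in knockout, against 6.28, 7.17 and 6.97 in control. Stomach markers, with Muc5ac, Pgc and Atp4a dim in every group, summed to 10.1 to 13.6 in rescue, 10.99 to 13.81 in knockout and 11.7 to 13.1 in control. Among them the parietal cell gene Atp4b averaged 6.38, 6.46 and 6.32 in rescue, knockout and control. Both sums follow their brightest markers. The part of neuronal, glial and stomach markers in the Aqp4 values was not tested.

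Aqp1, the water channel of red cells and of the endothelium of small vessels, read 7.29, 7.84 and 8.53 in rescue arrays, 8.45, 9.02 and 6.34 in knockout arrays and 7.31, 8.13 and 7.49 in control arrays. Knockout replicate 3 was the lowest of all arrays and knockout replicate 2 the highest, so the groups overlapped. The change in knockout against control was 0.29 ± 0.63 (adjusted p = 0.815), with an interval of -1.15 to 1.74. Endothelial markers, 2 of 10 of them dim in every group, summed to 10.2 to 10.7 in rescue, 10.7 to 11.6 in knockout and 9.98 to 10.8 in control. Their part in the spread of Aqp1 was not tested.

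Aqp8, a water channel of enterocytes, pancreatic acinar cells and liver, read 7.98, 7.60 and 10.73 in rescue arrays, 9.48, 7.61 and 8.02 in knockout arrays and 8.94, 8.40 and 8.69 in control arrays. Rescue replicate 3 stood above all other arrays and the groups overlapped throughout. The change was -0.31 ± 0.79 in knockout against control and 0.40 ± 0.79 in rescue against knockout (adjusted p = 0.849 and 0.836). The median of the 5 pancreatic markers lay 1.89 above the control mean in rescue replicate 3, where Aqp8 was highest, and 2.17 above it in knockout replicate 2, where Aqp8 was among the lowest. Their part in the Aqp8 values was not tested.

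Aqp3, an aquaglyceroporin of basolateral membranes that passes water and glycerol, read 6.65, 7.43 and 6.81 in rescue arrays, against 7.16, 8.29 and 8.94 in knockout arrays and 6.95, 7.21 and 7.14 in control arrays. Knockout replicates 2 and 3 were above all rescue and control arrays, and replicate 1 lay among them. The change of 1.03 ± 0.40 in knockout against control did not pass (adjusted p = 0.123), nor did that of -1.17 ± 0.40 in rescue against knockout (adjusted p = 0.170). Without knockout replicate 1 both passed, at 1.52 (adjusted p = 0.0156) and -1.66 (adjusted p = 0.0381). Of its other 3 probe sets, 2 gave positive changes against control (0.45 and 1.43) and 1 gave -0.02, and 0 of 3 passed. Among the knockout arrays, Aqp3 was highest in replicate 3, where Car8 was lowest, and lowest in replicate 1, where Car8 was highest. Its promoter window, with a TATA box, is the second of those printed above.

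The order of the knockout arrays differed between genes and was set beside the fibroblast markers. Car1 and Car2 were highest in knockout replicate 1 and lowest in replicate 3, the order of the fibroblast mean, while Car8, Car12 and Aqp3 departed furthest from control in replicate 3, whose fibroblast mean of 7.47 was near the 7.43 of a control array. When limma was given the fibroblast mean as covariate, the change in knockout against control was 0.49 for Car1 (adjusted p = 0.511), 1.48 for Car2 (adjusted p = 0.249) and -1.61 for Aqp4 (adjusted p = 0.2005). In that fit Car12 (-1.80, adjusted p = 0.0062), Car8 (adjusted p = 0.0011) and Aqp3 (adjusted p = 0.0178) passed, as did 11.1% of all genes. Only knockout replicates 1 and 2 had a high fibroblast mean, so that fit leans on replicate 3 and is not independent of the next fit. When replicate 3 alone stood for the knockout group, Car1, Car2 and Aqp4 read 0.69, 1.65 and -1.92. The lone array is then assumed to vary like the other groups, and the share of fibroblast RNA in each array was not measured.

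**Figure D3:**
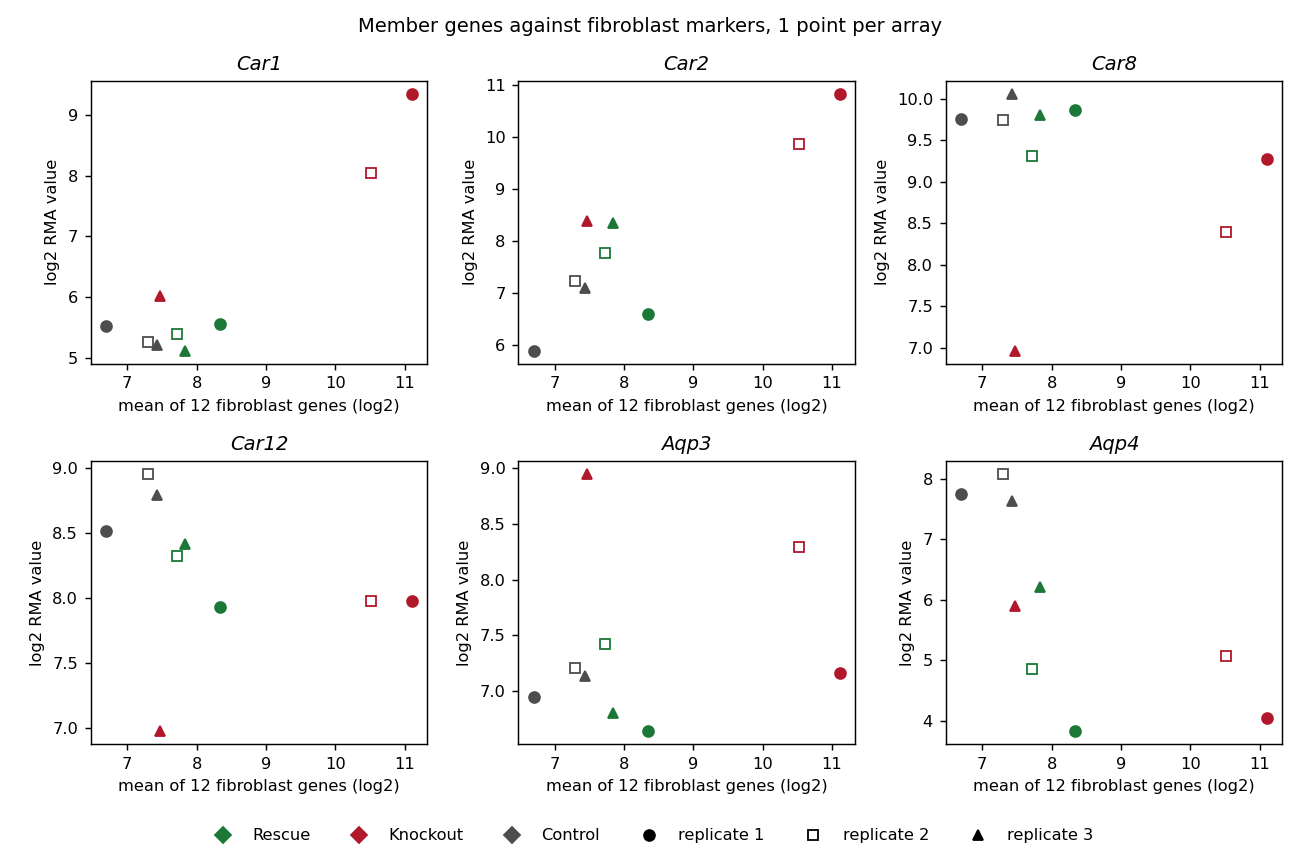
Log2 RMA value of Car1, Car2, Car8, Car12, Aqp3 and Aqp4 (vertical axis) against the mean of 12 fibroblast genes (horizontal axis, log2), 1 point per array, with colours for rescue, knockout and control and marker shapes for replicates. Knockout replicates 1 and 2 lie alone at 11.1 and 10.5 on the horizontal axis, and knockout replicate 3 lies at 7.47 among the other arrays.

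Calls therefore differed between analyses of the same arrays. Of the alternatives run for knockout against control, Car12 passed in 15 of 20, Car2 in 13 of 20, Aqp4 in 13 of 19 and Car1 in 6 of 19, with the direction kept in each. Car8 passed in 8 of 20 and Aqp3 in 4 of 20. Without any 1 of the control arrays, 0 of 10 members passed limma's test, with 5 or 6 at an unadjusted p under 0.05, and the share of all genes that passed was 5.14% to 6.66%. Without knockout replicate 3, 5 of 10 passed (Car1, Car2, Car8, Car12 and Aqp4), against 27.5% of all genes, and with arrays weighted by their quality 7 of 10 did, against 35.2% of all genes.

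**Figure D4:**
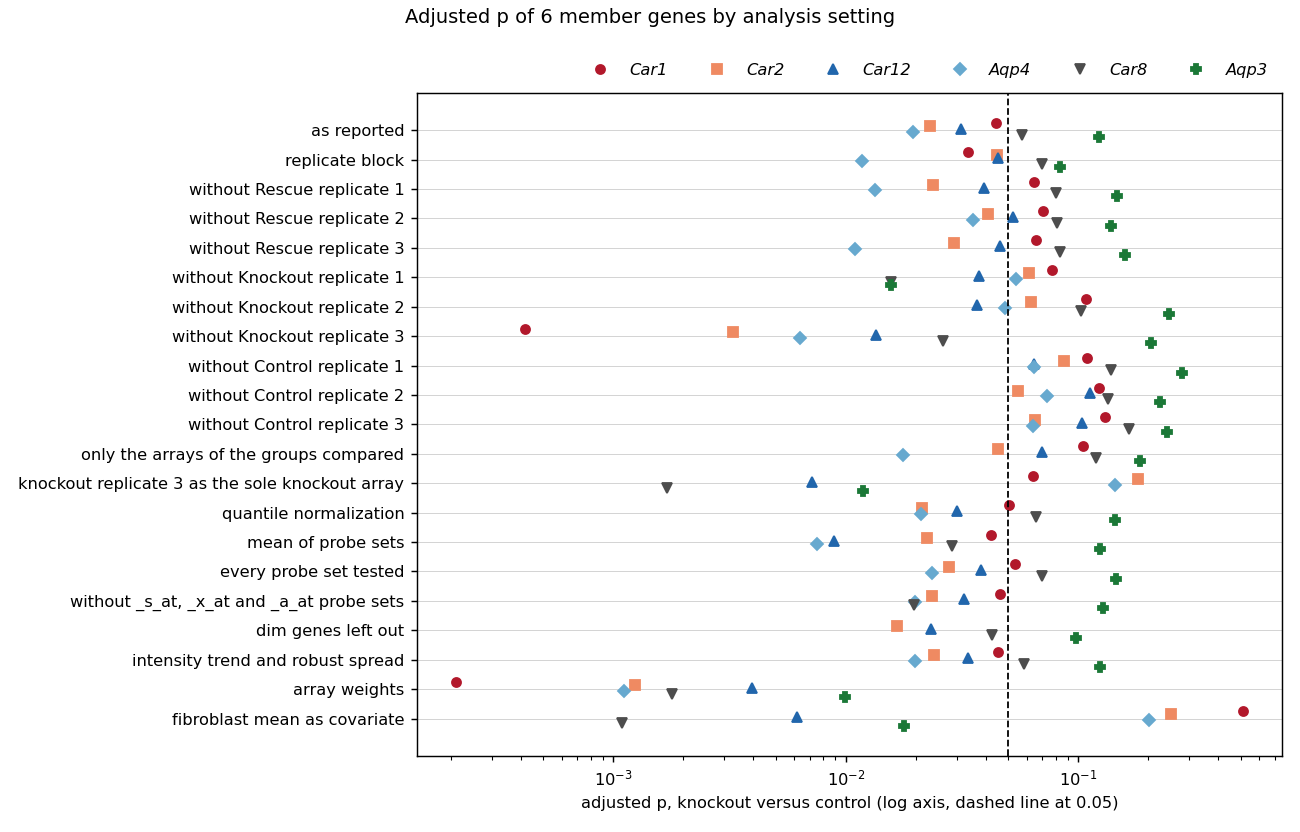
Adjusted p of 6 member genes in knockout against control (horizontal axis, log scale; dashed line at 0.05), with 1 line per analysis setting on the vertical axis. Points of Car1, Car2, Car12 and Aqp4 lie left of the dashed line as reported, and all points of the 3 settings that leave out a control array lie right of it.

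Among the other measured members of both families, 1 gene passed. In knockout against control, 0 of 10 further carbonic anhydrases passed limma's test, with 2 at an unadjusted p under 0.05 (Car6 and Car11), and their median change was -0.02. Over all genes 14.1% passed and 30.1% had such an unadjusted p. The largest of the uncalled changes were 0.46 ± 0.29 for Car9, the membrane enzyme known as a target of hypoxia-inducible factors (adjusted p = 0.341), and -0.37 ± 0.44 for the mitochondrial Car5a (adjusted p = 0.646). Of 8 further aquaporins 1 fell: Aqp11, a channel of intracellular membranes, read 10.17, 10.69 and 10.24 in rescue arrays, against 9.20, 9.65 and 10.23 in knockout arrays and 10.58, 10.86 and 10.93 in control arrays. All knockout arrays were below control, and the fall of 1.10 ± 0.26 was 2.14-fold (adjusted p = 0.0255). Leaving out knockout replicate 1 or 2 or any control array ended the call, with an adjusted p of 0.0572 to 0.0973. With the fibroblast covariate the change of Aqp11 was -0.49 (adjusted p = 0.271), and with replicate 3 alone for the knockout group it was -0.56 (adjusted p = 0.160). The uncalled aquaporins had a change of -0.31 (Aqp2) to 0.33 (Aqp7).

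Among genes that move bicarbonate, protons and salt, Slc9a2, Slc4a10, Clcn2, Scnn1g and Atp1b1 rose and Slc4a2 and Slc26a3 fell in knockout cells. Of 13 measured bicarbonate and proton transporters, 2 rose and 2 fell in knockout against control, with a median change of 0.07. Of 18 measured salt and fluid transport genes, 3 rose and 0 fell, with a median change of 0.21, against -0.04 over all genes. Over all genes 14.1% passed in this comparison, 5.29% higher and 8.77% lower. The 3 of 18 are near the 14.1% in either direction, but all 3 rose, where 5.29% of all genes did. Calls among the 13 stood above the 14.1%. These 7 calls became 6 without knockout replicate 1, 5 without replicate 2, 14 without replicate 3 and 5 with the fibroblast covariate, and these recounts of the transport genes were added after the data were seen. The share over all genes was 8.95% without knockout replicate 1, 10.9% without replicate 2, 27.5% without replicate 3 and 11.1% with the covariate. In rescue against knockout and in rescue against control 0 of the 13 and 0 of the 18 passed limma's test, with 5 and 3 at an unadjusted p under 0.05 against knockout and 1 and 2 against control, where 18.9% and 6.62% of all genes had such a p.

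Slc9a2, a sodium/proton exchanger, read 7.23, 6.91 and 7.22 in rescue arrays, against 8.34, 7.55 and 8.07 in knockout arrays and 6.08, 6.84 and 6.49 in control arrays. The 3 groups did not overlap, with rescue between the other two, and Slc9a2 rose by 1.51 ± 0.24 in knockout against control (2.86-fold, adjusted p = 0.0061). Slc4a10, a sodium-dependent bicarbonate transporter known mainly from neurons, rose by 3.22 ± 0.69 (adjusted p = 0.0182), which is at least 9.33-fold. Its knockout arrays stood at 5.94, 8.13 and 8.63, against 4.03, 4.62 and 4.38 for the control arrays. Among the knockout arrays Slc4a10 was lowest in replicate 1, where the summed neuronal and glial level was highest at 11.19, against 10.02 in both other knockout arrays. The part of neuronal, glial or other cells in the Slc4a10 values was not tested. The call ended without knockout replicate 2 or any control array (adjusted p = 0.0540 to 0.0708), the change was 4.03 without knockout replicate 1, and it was 4.63 with the fibroblast covariate (adjusted p = 0.0130). Slc26a3, the apical chloride/bicarbonate exchanger, read 11.50, 12.41 and 12.20 in rescue arrays, against 10.02, 11.34 and 11.75 in knockout arrays and 12.45, 12.61 and 12.62 in control arrays. All control arrays were above all others, and Slc26a3 fell by 1.52 ± 0.41 in knockout (2.88-fold, adjusted p = 0.0429), a call that ended without rescue replicate 2 or 3, knockout replicate 1 or 2 or any control array (adjusted p = 0.0516 to 0.126). With the fibroblast covariate its change was -0.58 (adjusted p = 0.453). Slc4a2, a chloride/bicarbonate exchanger of the basolateral membrane, fell by 0.79 ± 0.14 (1.72-fold, adjusted p = 0.0100), or -0.77 with that covariate (adjusted p = 0.0564).

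Clcn2, a chloride channel, read 7.949, 7.351 and 7.003 in rescue arrays, against 8.13, 8.16 and 8.66 in knockout arrays and 6.51, 6.72 and 6.75 in control arrays. The groups did not overlap, with rescue between the other two, and Clcn2 rose by 1.66 ± 0.24 in knockout (3.15-fold, adjusted p = 0.0042). Scnn1g, a subunit of the epithelial sodium channel, rose by 0.96 ± 0.15 (adjusted p = 0.0049), with both means among the dimmest 40% of genes, so no fold is given. The alpha subunit gene Scnn1a changed by -0.58 ± 0.19 and did not pass (adjusted p = 0.0797). Atp1b1, a subunit of the sodium pump, rose by 0.69 ± 0.11 (1.61-fold, adjusted p = 0.0059), but with probe sets left out whose identifiers mark them as shared between transcripts, its brightest remaining probe set read -0.12 (adjusted p = 0.625). Sgk1, a kinase that regulates sodium transport, and Gucy2c, the receptor of guanylin, did not pass (0.74 ± 0.25 and -0.59 ± 0.20, adjusted p = 0.0825 and 0.0875).

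**Figure D5:**
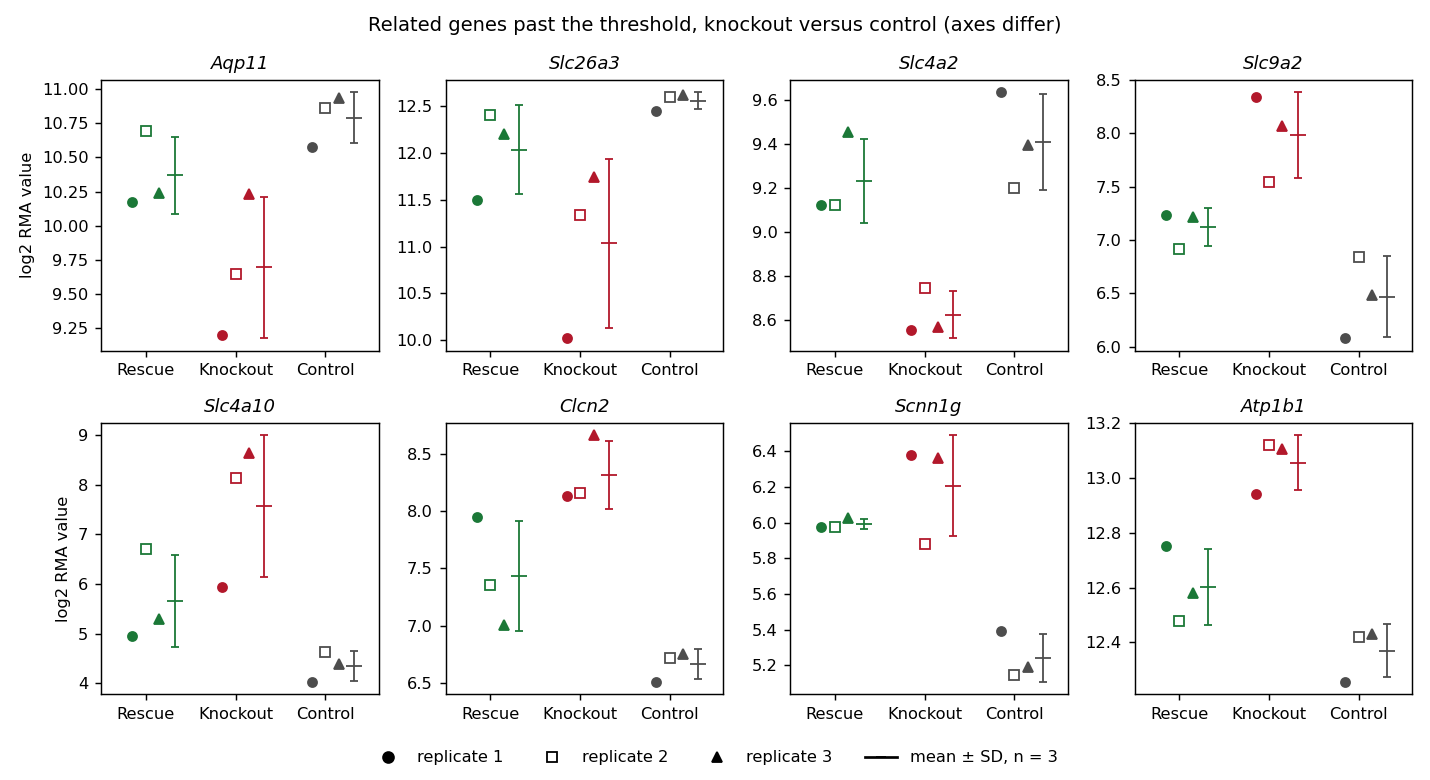
Log2 RMA value (vertical axis, scaled for each gene) by array for the 8 related genes that passed in knockout against control; columns of points are rescue, knockout and control, marker shapes are replicates, and the bar is the group mean ± SD. Knockout arrays are all above control arrays for Slc9a2, Slc4a10, Clcn2, Scnn1g and Atp1b1 and all below them for Aqp11, Slc4a2 and Slc26a3.

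The genes most like each called member were sought by Pearson correlation of log2 values over the 9 arrays among 10909 genes outside the dimmest 40%. The arrays share their groups, so the likeness includes every difference between groups, and it is given as a description. Most like Car1 were Apbb1 (r = 0.994), Tox2 (0.991) and Crispld2 (0.989). Most like Car2 were Adgre5 (r = 0.987), Wfdc18 (0.973) and Rgcc (0.973). Car12 was followed most closely by Dmd (r = 0.985), Manea (0.984) and Sdad1 (0.972), and Aqp4 by Sdccag8 (0.958), As3mt (0.950) and Ripk3 (0.950). No gene was shared between these 4 sets of 3.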

How the data were processed

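Total RNA of 9 samples was hybridised to Affymetrix mouse arrays. The values are the authors' deposited log2 RMA values per probe set; RMA and Partek 6.5 are named per the submitters' processing notes, and the sources used here do not give the background step or any filter. They were used with no further scaling. The files hold 45101 probe sets, of which 34958 carried 1 gene symbol in the 2016 platform annotation, 932 several and 9211 none; 0 of 36 array pairs were identical. Each of 18193 genes was read by its brightest single-symbol probe set, and 6 of the 10 members had several.

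Genes were tested on all 9 arrays in a model with a mean per genotype by limma 3.58.1 (lmFit, eBayes) in R 4.3.3, two-sided, with Benjamini-Hochberg adjustment over all genes and a threshold of 0.05. The fit was tested on simulated data. Errors are limma's moderated standard errors with 3 arrays per group, and intervals are 95% intervals of a change. The spread of a gene is estimated over all 3 groups together, so its error is the same in each comparison. Where knockout arrays spread widely, the interval of rescue against control is therefore wide too. Arrays limit precision by their number. A gene was dim in a group when its mean lay in the lowest 40% of genes there. Probe sets of a gene were also tested one by one, with adjustment over all probe sets.

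The members and gene lists were chosen with earlier results of these data known. Named genes were all members, up to 6 genes per related list by smallest p with every further called gene, and 3 genes most like each called member. Of 210 listed symbols 189 were measured. Alternatives covered a replicate block, omission of single arrays, normalization, probe set choice, a filter on dim genes, the variance model, array weights and a fibroblast covariate.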

Additional observations from a re-analysis of the deposited data

How the results depend on the processing

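Arrays carry no depth, and 3 per group limit the precision. For dim signals such as Car4, and Aqp4 outside control, background flattens differences. Of the single-gene values recomputed under the alternatives, 490 kept their direction and side of the threshold, 27 moved past it, 31 fell short of it and 33 changed sign, all 33 among changes that did not pass as reported. The causes were not tested.

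Leaving out 1 array at a time gave 936 to 4998 genes and 0 to 5 members in knockout against control, 105 to 2793 genes and 0 to 2 members in rescue against knockout, and 2 to 136 genes and 0 members in rescue against control. Fitting only the groups compared gave 1655, 30 and 149 genes in these comparisons, with 2 members in the first. Array weights gave 6395, 2453 and 355 genes and 7, 4 and 1 members. With every probe set tested, 3942 probe sets passed in the first comparison and 63 in the last. The fibroblast covariate gave 991 genes and 3 members in rescue against knockout and 105 genes in rescue against control. Knockout replicate 3 alone for its group gave 1096 genes and 3 members in rescue against knockout. Rescue against control had 15 genes after quantile normalization and 14 with an intensity trend and robust spread.

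Deviations of same-numbered arrays from their group means correlated at -0.22 to 0.40. Differently numbered arrays were not compared, so these values cannot decide whether replicate numbers pair the samples. A replicate block gave 2404, 257 and 12 genes and 4, 0 and 0 members.

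Changes of sign in single omissions lay within these ranges. In knockout against control they were -0.25 to 1.09 for Aqp1 and -0.86 to 0.073 for Aqp8. In rescue against knockout they were -0.85 to 0.49 for Aqp1, -0.66 to 0.52 for Aqp4, -0.58 to 0.99 for Aqp8 and -0.12 to 0.16 for Car3. In rescue against control they were -0.077 to 0.14 for Car1, -0.37 to 0.017 for Aqp3, -0.082 to 0.54 for Aqp1 and -0.88 to 0.68 for Aqp8. When knockout replicate 3 alone stood for its group, Car3 was 0.025 and Aqp1 -1.30 against control, and rescue against knockout was -0.20 and 1.54. The mean of probe sets gave Car3 0.060 in knockout against control, and Car3 -0.11 and Aqp4 0.046 in rescue against knockout. Without shared probe sets Car4 was 0.078 in rescue against control, and with array weights Aqp8 was -0.17 there. The fibroblast covariate gave Aqp1 -1.29 in knockout against control, Car3 -0.10 and Aqp1 1.02 in rescue against knockout, and Car1 -0.62, Aqp1 -0.27, Aqp3 0.18 and Aqp8 -0.040 in rescue against control.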
